A study of Homo sapiens with 31 samples.

Results

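The genes described here carry the type I interferon signal from the cell surface to the nucleus: the receptor chains IFNAR1 and IFNAR2, the kinases TYK2 and JAK1, the transcription factors STAT2, IRF9, IRF1 and IRF7, and the RNA sensor IFIH1. They were named as a pathway, and for each the probe set annotated to that symbol alone was taken, the one with the highest mean where there were several. Of the 9 genes, 8 had such a probe set (1 each) among the 17314 genes with a probe set of their own. No probe set was listed for STAT2 alone, so its RNA level is not analysed here.

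Expression was read on 31 Affymetrix arrays from xenografts of PC3, an established line of human prostate carcinoma cells. The 4 lines were D4 and D3, clones labelled resistant to cyclophosphamide (CPA, a prodrug that becomes a DNA-crosslinking agent after activation in the liver), the clone A3, labelled sensitive, and the parental line, called wt, also labelled sensitive. D4, D3 and A3 had each been passaged in animals and re-isolated, whereas wt had not been passaged in this way, so passage and being 1 clone cannot be told apart in any comparison with wt. Tumours averaged 30 mm3 when CPA was given, at 120 mg/kg into the abdominal cavity. In order, the 8 groups were CPA-treated and untreated D4, CPA-treated and untreated D3, CPA-treated and untreated A3, and CPA-treated and untreated wt. Untreated A3 held 3 arrays, after the submitters left out 1 as an outlier, and each other group held 4. The labels number the replicates without saying whether each came from its own animal, so the spread behind each p-value is that between these samples and may be technical.

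Type I interferons bind IFNAR1 and IFNAR2 together, which brings TYK2 and JAK1, the kinases bound to their inner ends, into contact. The kinases phosphorylate STAT2, which acts with IRF9 in the factor ISGF3 to turn on genes that carry an interferon-stimulated response element. IRF9 is the subunit that touches DNA, IRF1 acts downstream of interferon-gamma as well, IRF7 drives transcription of the interferon-alpha genes, and IFIH1 encodes a cytosolic sensor of long double-stranded RNA that leads to interferon production.

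Upstream sequence is shown for IFIH1, IRF9 and IRF1, the 3 windows that held a match to either of 2 known binding motifs. Windows of the 250 bases before an annotated start site were available from RefSeq (GRCh38.p14) for 7 of the 9 genes, 10 windows in all. The letters searched were 2 copies of GAAA with any 2 bases between them, a core of the interferon-stimulated response element, and TTCNNNGAA, the gamma-activated site bound by STAT dimers, each on both strands. Matches are in capitals, and each line reads 5′ to 3′ on the strand of the gene. IFIH1 is the window chr2:162318685-162318934 on the minus strand, IRF9 is chr14:24161015-24161264 on the plus strand, and IRF1 is chr5:132490774-132491023 on the minus strand.
IFIH1: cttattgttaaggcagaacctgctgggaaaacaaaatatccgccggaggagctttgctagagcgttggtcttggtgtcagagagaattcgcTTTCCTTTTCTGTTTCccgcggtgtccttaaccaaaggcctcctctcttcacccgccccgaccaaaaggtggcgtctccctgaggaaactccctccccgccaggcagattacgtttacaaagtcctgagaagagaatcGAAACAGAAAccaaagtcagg
IRF9: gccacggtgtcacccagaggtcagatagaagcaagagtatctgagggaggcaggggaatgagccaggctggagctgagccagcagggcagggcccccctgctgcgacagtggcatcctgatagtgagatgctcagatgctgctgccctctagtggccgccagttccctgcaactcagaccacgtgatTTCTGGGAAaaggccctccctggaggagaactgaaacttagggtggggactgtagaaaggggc
IRF1: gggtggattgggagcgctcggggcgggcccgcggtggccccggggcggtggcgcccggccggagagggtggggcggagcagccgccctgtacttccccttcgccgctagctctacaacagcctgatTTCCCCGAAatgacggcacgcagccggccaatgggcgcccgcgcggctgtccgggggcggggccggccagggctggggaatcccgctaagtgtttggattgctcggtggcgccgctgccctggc

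The IFIH1 window held 3 matches to the response-element letters. They lay at -159 to -150 and -153 to -144, which overlap, both on the opposite strand, and at -21 to -12 on the strand of the gene. Such letters stood in 3.02% of the 35116 windows of this length. The IRF9 window held 1 match to the gamma-activated letters at -63 to -55, and the IRF1 window 1 at -124 to -116; 6.57% of all windows held one. No match to either motif was in the windows of STAT2, JAK1, TYK2 or IFNAR1, and IRF7 and IFNAR2 had no window to search. A match describes letters and was not tested as a binding site.

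**Figure D1:**
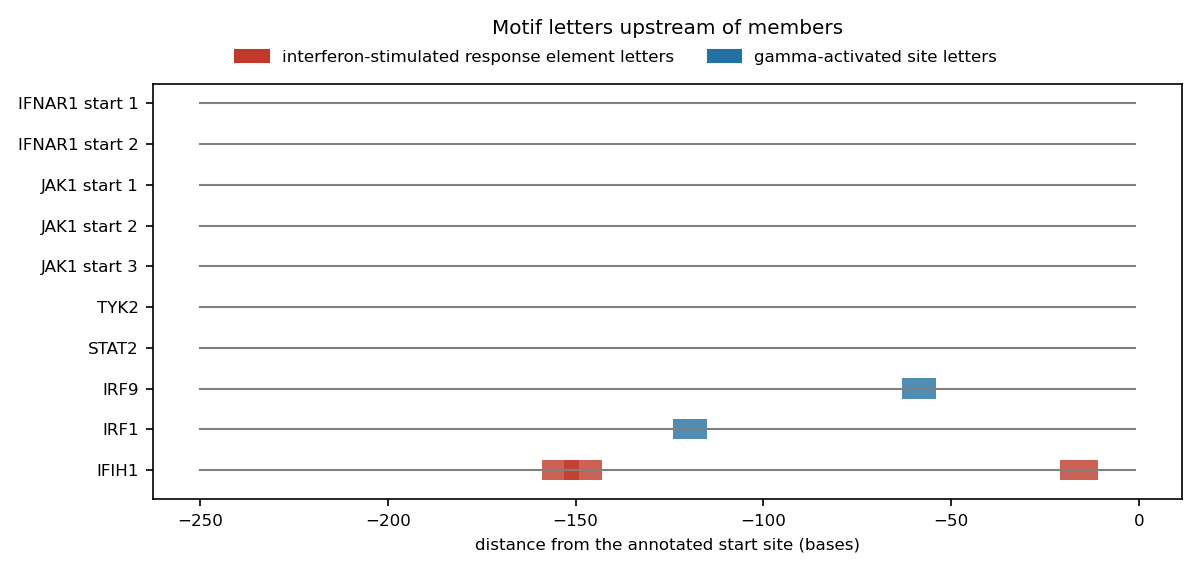
Positions of motif letters in the 250 bases upstream of each annotated start site (horizontal axis, distance in bases) for 7 genes and 10 windows. Red boxes mark the interferon-stimulated response element letters and blue boxes the gamma-activated site letters. IFIH1 holds 3 red boxes, 2 of which overlap, and IRF9 and IRF1 hold 1 blue box each.

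Values are log2 levels, so a difference of 1 is a doubling. A gene was called when its Benjamini-Hochberg adjusted p over all 17314 genes was under 0.05 in limma, fitted once to all arrays. Array medians lay between 6.59 and 6.73, and arrays of a group correlated at 0.985 to 0.997 across genes. The 4 arrays farthest from the mean of their group were D4 untreated replicates 1 and 4, D3 CPA replicate 5 and A3 untreated replicate 2. Differences that these far arrays changed most are given with and without them. The carcinoma keratins KRT8, KRT18 and KRT19 had group means between 9.49 and 10.6, and the prostate markers KLK3 and KLK2, little expressed by PC3 cells, between 5.76 and 5.99. Markers of blood and stroma spanned a wide range of group means, with PTPRC, the leukocyte antigen CD45, between 3.11 and 3.26, the macrophage marker CD68 between 8.46 and 8.91, the proteoglycan DCN between 3.16 and 3.48 and the collagen COL1A1 between 9.62 and 10.3. The table carries no detection call, so absence cannot be read from these levels.

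Of the 8 measured genes, IFIH1 and IRF9 were lower in all 3 clones than in wt with and without CPA, and IRF1, IRF7 and IFNAR2 in some of these comparisons. JAK1, TYK2 and IFNAR1 were called in none of them. In untreated tumours 3 genes in D4, 2 in D3 and 3 in A3 were called against wt, each lower. Over all genes, 20.1%, 18.1% and 18.5% were called in these comparisons, and 10.9%, 8.4% and 8.36% were called lower, against 9.22%, 9.69% and 10.1% higher. The arrays of clone and wt did not overlap in 18.4%, 22.1% and 24.2% of all genes in untreated tumours and in 20.7%, 24.2% and 19.3% in CPA-treated tumours. In CPA-treated tumours the counts were 4, 3 and 2 of 8, each lower, where 15.1%, 16.4% and 16.3% of all genes were called and 7.59%, 10.1% and 9.6% called lower. The median log2 difference of the 8 genes was -0.32 in D4, -0.19 in D3 and -0.28 in A3 against untreated wt, beside 0.05, 0.01 and 0.04 over all genes. These comparisons share the wt arrays. In these bulk tumours, fewer cells with the RNA and less RNA per cell cannot be told apart.

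**Figure D2:**
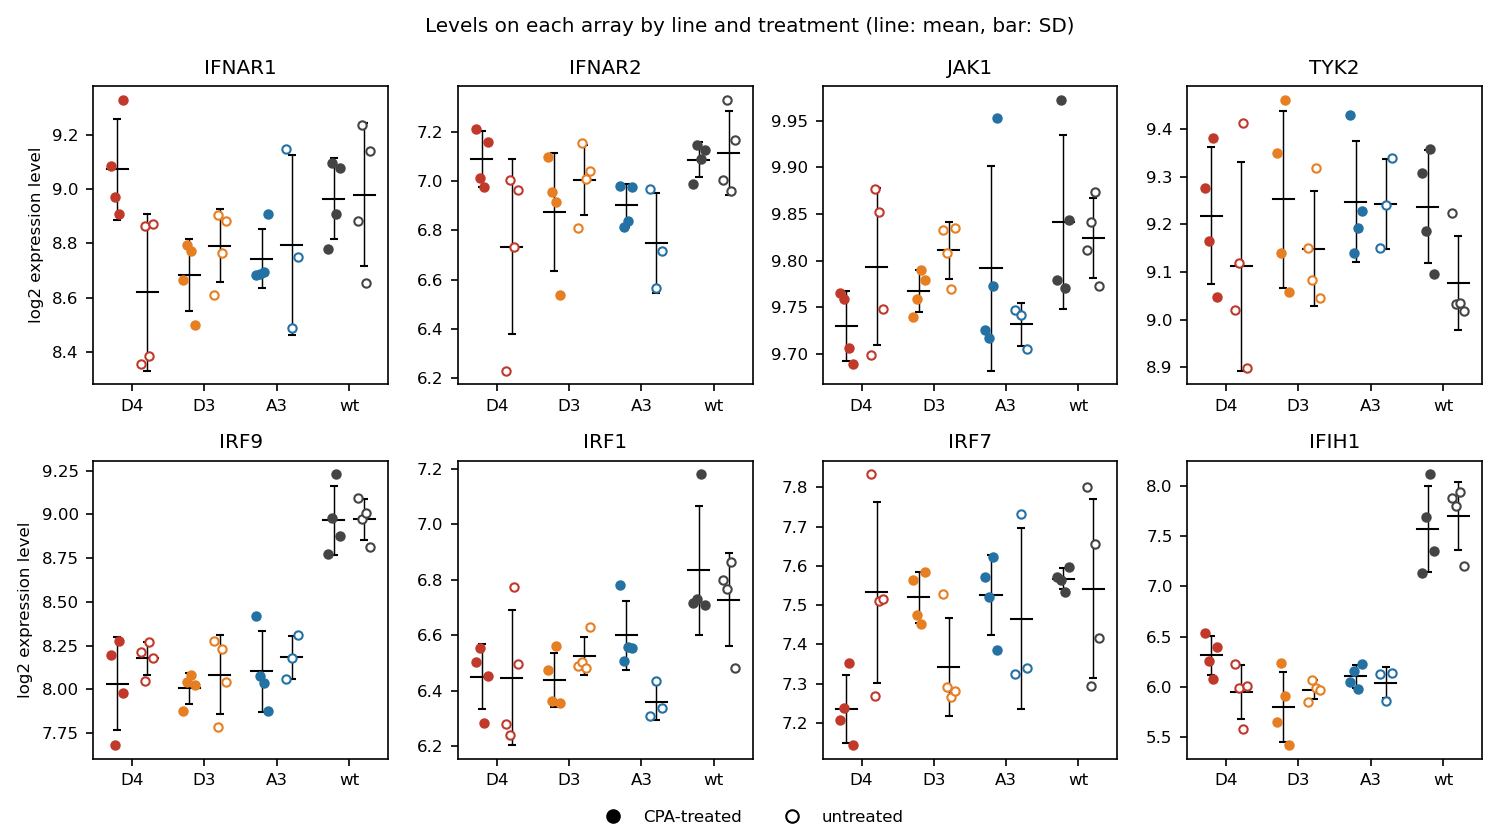
Log2 expression level (vertical axis, a separate scale per gene) of the 8 measured genes on each of the 31 arrays, by line (horizontal axis) with CPA-treated tumours as filled and untreated as open points. Horizontal lines are group means and bars the SD over 3 or 4 arrays. The wt points of IFIH1 and IRF9 lie above all points of the clones, and those of JAK1 and TYK2 mix with them.

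**Figure D3:**
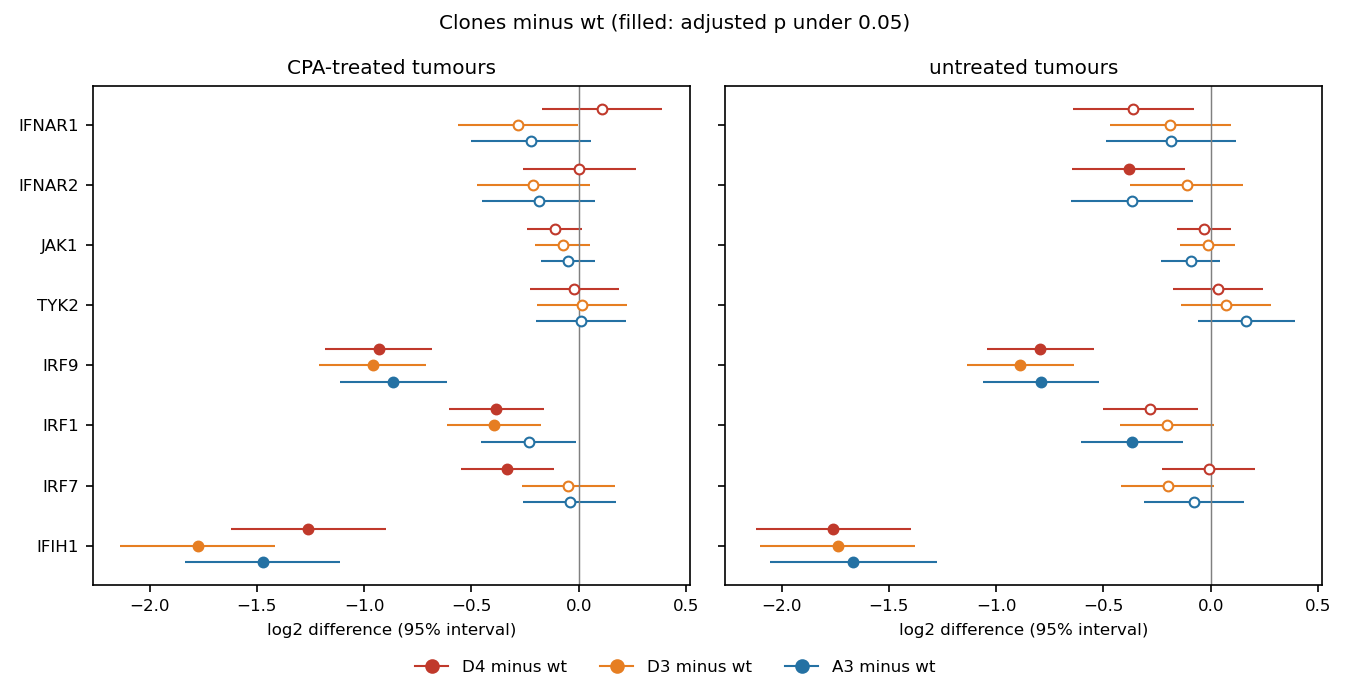
Log2 difference of each clone from wt (horizontal axis) with its 95% interval for the 8 measured genes, in CPA-treated (left) and untreated tumours (right). Filled points were called at an adjusted p under 0.05. IFIH1 and IRF9 are filled in all 6 comparisons, at -1.26 to -1.78 and -0.79 to -0.96, and JAK1 and TYK2 lie near 0.

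The genes of both receptor chains lay on chromosome 21, IFNAR2 at chr21:33229938-33265664 and IFNAR1 at chr21:33324395-33359864. IFNAR2 read 6.23, 7.0, 6.73 and 6.96 in untreated D4, 6.81, 7.16, 7.01 and 7.04 in untreated D3 and 6.97, 6.56 and 6.72 in untreated A3, against 7.0, 7.33, 6.96 and 7.17 in untreated wt. The clone and wt arrays overlapped in D4, D3 and A3. IFNAR2 was called lower in D4 (log2 difference -0.38 ± 0.13 SE, adjusted p = 0.0342 by limma), and the differences in A3 (-0.37 ± 0.14 SE, adjusted p = 0.066) and D3 (-0.11 ± 0.13 SE, adjusted p = 0.66) were not called. The D4 call rested on a few arrays: without D4 untreated replicate 1 the difference was -0.21 (adjusted p = 0.223 by limma), and without wt untreated replicate 2 it was -0.31 (adjusted p = 0.133). It was lost too without D4 untreated replicate 4 (-0.38, adjusted p = 0.0622 by limma) or wt untreated replicate 4 (-0.36, adjusted p = 0.0725). It was -0.13 without the 4 far arrays (adjusted p = 0.507 by limma). The A3 difference was called without A3 untreated replicate 1 (-0.47, adjusted p = 0.0334 by limma). In CPA-treated tumours IFNAR2 differed from wt by 0.00 in D4, -0.21 in D3 and -0.19 in A3, with no call, and the D3 value was -0.10 without the 4 far arrays.

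IFNAR1 was called in no comparison over all arrays. It read 8.35, 8.87, 8.38 and 8.87 in untreated D4, 8.61, 8.91, 8.77 and 8.88 in untreated D3 and 9.15, 8.49 and 8.75 in untreated A3, against 8.88, 9.24, 8.65 and 9.14 in untreated wt. The 2 lowest D4 readings came from the far arrays, replicates 1 and 4. The log2 differences from wt were -0.36 ± 0.14 in D4, -0.19 ± 0.14 in D3 and -0.19 ± 0.15 in A3 (SE, adjusted p = 0.0628, 0.42 and 0.463 by limma). Without the 4 far arrays the D4 difference was -0.11 and the A3 difference -0.03. The D4 difference was called without D4 untreated replicate 2 (-0.44, adjusted p = 0.0302 by limma) or 5 (-0.45, adjusted p = 0.0302) or wt untreated replicate 3 (-0.47, adjusted p = 0.0204).

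The kinases varied least among the 8 genes. JAK1 (chr1:64833229-65067746) read 9.69 to 9.95 on the 23 clone arrays (median 9.76) and 9.77 to 9.97 on the 8 wt arrays (median 9.83). TYK2 (chr19:10350533-10380572) read 8.90 to 9.46 on the clone arrays (median 9.17) and 9.02 to 9.36 on the wt arrays (median 9.14). Clone and wt arrays overlapped for both genes taken over all arrays, although for JAK1 the untreated A3 and the CPA-treated D4 arrays lay below their wt arrays. The 95% intervals of the 6 differences between a clone and wt stayed between -0.24 and 0.11 for JAK1 and between -0.23 and 0.39 for TYK2. The range of the 8 group means of JAK1, 0.11, was at the 0.9 percentile of such ranges over all genes, and that of TYK2, 0.18, at the 7.1 percentile.

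IRF9 (chr14:24161265-24166565), the DNA-touching subunit of ISGF3, was lower in all 3 clones. In untreated tumours it read 8.21, 8.05, 8.27 and 8.18 in D4, 8.28, 7.78, 8.23 and 8.04 in D3 and 8.06, 8.18 and 8.31 in A3, against 9.09, 8.97, 9.01 and 8.81 in wt. In CPA-treated tumours it read 8.20, 7.68, 8.28 and 7.98 in D4, 7.88, 8.04, 8.08 and 8.03 in D3 and 8.42, 8.07, 8.04 and 7.88 in A3, against 8.77, 8.98, 9.23 and 8.88 in wt. No clone array reached a wt array under either condition. The log2 differences from wt in untreated tumours were -0.79 ± 0.12 in D4, -0.89 ± 0.12 in D3 and -0.79 ± 0.13 in A3 (SE, adjusted p = 1.73e-05, 4.26e-06 and 5.85e-05 by limma). In CPA-treated tumours they were -0.93 ± 0.12, -0.96 ± 0.12 and -0.86 ± 0.12 in the same order (SE, adjusted p between 2.02e-06 and 6.22e-06 by limma). The group means of the clones ran from 8.01 ± 0.09 in CPA-treated D3 to 8.18 ± 0.12 in untreated A3 (SD), within the spread of single groups, and both wt means were 8.97.

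IRF1 (chr5:132481609-132490773), a factor induced by both interferon types, was lower in some comparisons by a smaller step. In untreated tumours it read 6.28, 6.24, 6.77 and 6.49 in D4, 6.49, 6.50, 6.48 and 6.63 in D3 and 6.31, 6.44 and 6.34 in A3, against 6.80, 6.77, 6.86 and 6.48 in wt. The D4 and D3 arrays overlapped with wt and the A3 arrays did not. The log2 difference from wt was -0.28 ± 0.11 in D4 (SE, adjusted p = 0.0649 by limma), -0.20 ± 0.11 in D3 (adjusted p = 0.219) and -0.37 ± 0.12 in A3 (adjusted p = 0.0249). The D4 difference was called without the 4 far arrays (-0.36, adjusted p = 0.0478 by limma), without D4 untreated replicate 4 alone (-0.39, adjusted p = 0.00977) and without wt untreated replicate 4 (-0.36, adjusted p = 0.0214). The A3 call was lost when A3 untreated replicate 1 or 4 or wt untreated replicate 1, 2 or 3 was left out, with adjusted p between 0.0553 and 0.0829 by limma.

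In CPA-treated tumours IRF1 read 6.50, 6.55, 6.28 and 6.45 in D4, 6.47, 6.36, 6.56 and 6.36 in D3 and 6.78, 6.51, 6.56 and 6.55 in A3, against 6.71, 6.73, 7.18 and 6.71 in wt. The D4 and D3 arrays lay below wt, and 1 A3 array was above 3 of the wt arrays. IRF1 fell in D4 (log2 difference from wt -0.38 ± 0.11 SE, adjusted p = 0.0135 by limma) and in D3 (-0.40 ± 0.11 SE, adjusted p = 0.0115), and the difference in A3 was -0.23 ± 0.11 (SE, adjusted p = 0.146). Both calls rested on wt CPA replicate 3: without it the difference was -0.27 in D4 (adjusted p = 0.105 by limma) and -0.28 in D3 (adjusted p = 0.0853). The D4 call was also lost without D4 CPA replicate 4 (-0.33, adjusted p = 0.0512 by limma).

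IRF7 (chr11:612555-615950), the inducer of interferon-alpha genes, was called in 1 comparison with wt. In CPA-treated tumours it read 7.21, 7.24, 7.35 and 7.14 in D4, 7.56, 7.48, 7.45 and 7.59 in D3 and 7.57, 7.52, 7.62 and 7.39 in A3, against 7.57, 7.56, 7.53 and 7.60 in wt. The D4 arrays lay below all others of the treated tumours. IRF7 fell in D4 against wt (log2 difference -0.33 ± 0.11 SE, adjusted p = 0.0308 by limma), and the differences in D3 and A3 were -0.05 and -0.04. The call was lost without D4 CPA replicate 1, 2 or 5 or without any 1 of the 4 wt CPA arrays, with adjusted p between 0.0568 and 0.0984 by limma. In untreated tumours the D4, D3 and A3 differences from wt were -0.01, -0.20 and -0.08, none of them called. They were -0.15, -0.20 and -0.21 without the 4 far arrays, again with no call.

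IFIH1 (chr2:162267074-162318684) differed most between the lines among the 8 genes. In untreated tumours it read 6.23, 5.98, 5.57 and 6.0 on the D4 arrays, 5.84, 6.07, 5.99 and 5.97 on the D3 arrays and 6.13, 5.86 and 6.13 on the A3 arrays, against 7.88, 7.80, 7.94 and 7.20 on the wt arrays. Every clone array lay below every wt array. IFIH1 was 3.38-fold lower in D4 than in wt (log2 difference -1.76 ± 0.18 SE, adjusted p = 2.18e-08 by limma), 3.34-fold lower in D3 (-1.74 ± 0.18 SE, adjusted p = 4.34e-08) and 3.17-fold lower in A3 (-1.67 ± 0.19 SE, adjusted p = 2.42e-07).

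CPA-treated tumours gave the same separation of clones from wt. IFIH1 read 6.53, 6.25, 6.08 and 6.39 in CPA-treated D4, 5.65, 6.23, 5.90 and 5.41 in D3 and 6.04, 6.16, 5.98 and 6.23 in A3, against 7.13, 7.70, 8.12 and 7.35 in wt. Again no clone array reached the lowest wt array. The log2 differences from wt were -1.26 ± 0.18 in D4, -1.78 ± 0.18 in D3 and -1.47 ± 0.18 in A3 (SE, adjusted p between 3.48e-08 and 6.45e-06 by limma). The 8 group means, from the lowest, were 5.80 ± 0.35 in CPA-treated D3, 5.95 ± 0.27 in untreated D4, 5.97 ± 0.09 in untreated D3, 6.04 ± 0.15 in untreated A3, 6.10 ± 0.11 in CPA-treated A3, 6.31 ± 0.19 in CPA-treated D4, 7.58 ± 0.43 in CPA-treated wt and 7.71 ± 0.34 in untreated wt (SD). The 6 clone means spanned 5.80 to 6.31, and D4 against D3 after CPA, the ends of that span, is taken up among the clones. The widest step between neighbours, 0.21 between CPA-treated D4 and CPA-treated A3, was not called (adjusted p = 0.431 by limma). The 2 wt means differed by less than the SD of either.

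Over all conditions, the 23 clone arrays read 5.41 to 6.53 for IFIH1 (median 6.04) and the 8 wt arrays 7.13 to 8.12 (median 7.75). For IRF9 the clone arrays read 7.68 to 8.42 (median 8.07) and the wt arrays 8.77 to 9.23 (median 8.98). Of all 17314 genes, 394 (2.28%) had every clone array below every wt array, and IFIH1 and IRF9 were the 2 of the 8 measured pathway genes among them. The range of the 8 group means of IFIH1, 1.91, was at the 99.9 percentile of such ranges over all genes, and that of IRF9, 0.97, at the 97.7 percentile. All 6 IFIH1 and all 6 IRF9 calls were kept in every alternative computed, including those without the 4 far arrays.

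Other genes of the pathway were called between clones, as given below, but none of the 8 measured genes was. The clones labelled resistant, D4 and D3, thus gave 0 of 8 calls against A3, where 3.77% and 2.27% of all genes were called in untreated tumours and 12.4% and 4.55% in CPA-treated tumours. D4 against D3 gave 0 of 8 as well, where 0.323% and 8.05% were called. At an unadjusted p under 0.05 by limma, D4 against A3 had 0 and 2 genes in untreated and CPA-treated tumours, where 15.1% and 28.7% of all genes did so. D3 against A3 had 0 and 0, where 11.5% and 15.4% did, and D4 against D3 had 1 and 3, where 9.67% and 31.6% did. In untreated tumours the differences for IFIH1 were -0.09 between D4 and A3 and -0.07 between D3 and A3, and those for IRF9 were -0.0046 and -0.10. The 95% intervals were -0.48 to 0.30 and -0.46 to 0.32 for IFIH1 and -0.27 to 0.27 and -0.37 to 0.17 for IRF9. Without the 4 far arrays the IFIH1 difference was -0.16 between D3 and A3, and the IRF9 difference was -0.07 between D4 and A3.

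CPA-treated D4 against CPA-treated D3 had 3 genes with an unadjusted p under 0.05. The log2 difference was 0.52 ± 0.18 for IFIH1 (SE, adjusted p = 0.061 by limma), 0.39 ± 0.14 for IFNAR1 (SE, adjusted p = 0.0655) and -0.28 ± 0.11 for IRF7 (SE, adjusted p = 0.0769). The arrays of D4 and D3 overlapped for IFIH1 and did not for IFNAR1 and IRF7, as in 22.3% of all genes. Without D4 CPA replicate 4, IFIH1 (0.59, adjusted p = 0.044 by limma) and IFNAR1 (0.45, adjusted p = 0.05, just under the threshold before rounding) were called. Without D3 CPA replicate 3, IFIH1 was called (0.66, adjusted p = 0.0348 by limma). Without the 4 far arrays, of which D3 CPA replicate 5 is one, the differences were 0.39, 0.33 and -0.26 and none was called. In CPA-treated D4 against A3, IFNAR1 at 0.33 and IRF7 at -0.29 had adjusted p = 0.108 and 0.0684 by limma over all arrays. Both were called at the same differences without the 4 far arrays (adjusted p = 0.0412 and 0.0237 by limma), none of which is in either group. In that fit 19.1% of all genes were called. IRF7 was also called without A3 CPA replicate 4 (-0.34, adjusted p = 0.0443 by limma).

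Treatment was examined within each line. Against untreated tumours, 0 of 8 pathway genes were called after CPA in D4, D3, A3 and wt by limma, where 1.03%, 0.231%, 0.352% and 0.0462% of all genes were called. At an unadjusted p under 0.05 there were 4, 0, 1 and 0 of the 8 genes, where 21.9%, 12.8%, 6.68% and 3.38% of all genes passed. IFIH1 differed by 0.37 ± 0.18 in D4, -0.17 ± 0.18 in D3, 0.06 ± 0.19 in A3 and -0.13 ± 0.18 in wt (SE). IRF9 differed by -0.14 ± 0.12, -0.08 ± 0.12, -0.08 ± 0.13 and -0.01 ± 0.12 in the same lines (SE), and the 95% intervals lay between -0.39 and 0.24. IFIH1 differed, once the 4 far arrays were left out, by 0.32 in D4, -0.04 in D3 and -0.03 in A3, and IRF9 by -0.08 in D4. The 1 gene in A3 was IRF1, whose CPA-treated arrays did not overlap with the untreated ones and lay above them, where 5.04% of all genes had no overlap (0.24 ± 0.12 SE, adjusted p = 0.745 by limma).

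Of the 4 genes in D4, IFNAR1 had the largest difference after CPA, and IFIH1 and IFNAR2 came next. IFNAR1 read 9.09, 8.97, 8.91 and 9.33 in CPA-treated D4, against 8.35, 8.87, 8.38 and 8.87 in untreated D4, and the arrays did not overlap, as in 9.97% of all genes. The log2 difference was 0.46 ± 0.14 (SE, adjusted p = 0.0838 by limma). IFNAR2 read 7.21, 7.01, 6.98 and 7.16 in CPA-treated D4, against 6.23, 7.0, 6.73 and 6.96 in untreated D4, a difference of 0.36 ± 0.13 (SE, adjusted p = 0.125 by limma) with 1 pair of arrays overlapping. IRF7 went the other way, at -0.30 ± 0.11 (SE, adjusted p = 0.123 by limma). Without the 4 far arrays, which include untreated D4 replicates 1 and 4, the differences were 0.21 for IFNAR1, 0.11 for IFNAR2 and -0.16 for IRF7. Without untreated D4 replicate 2, IFNAR1 (0.54, adjusted p = 0.0368 by limma) and IRF7 (-0.38, adjusted p = 0.0416) were called, and without untreated D4 replicate 5, IFNAR1 was (0.54, adjusted p = 0.0459).

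The CPA effect in each clone was also set against that in wt. No gene of the 8, and none of all 17314 (0%), was called in any of the 3 differences of effect by limma, and at an unadjusted p under 0.05 there were 3 of the 8 genes for D4, 0 for D3 and 0 for A3, where 7.33%, 6.61% and 3.2% of all genes passed. For D4 these were IFNAR1 at 0.47 ± 0.19, IFNAR2 at 0.38 ± 0.18 and IRF7 at -0.32 ± 0.15 (SE, adjusted p = 0.667 for each by limma). Leaving out the 4 far arrays gave 0.22 ± 0.18, 0.13 ± 0.14 and -0.18 ± 0.14 (SE).

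**Figure D4:**
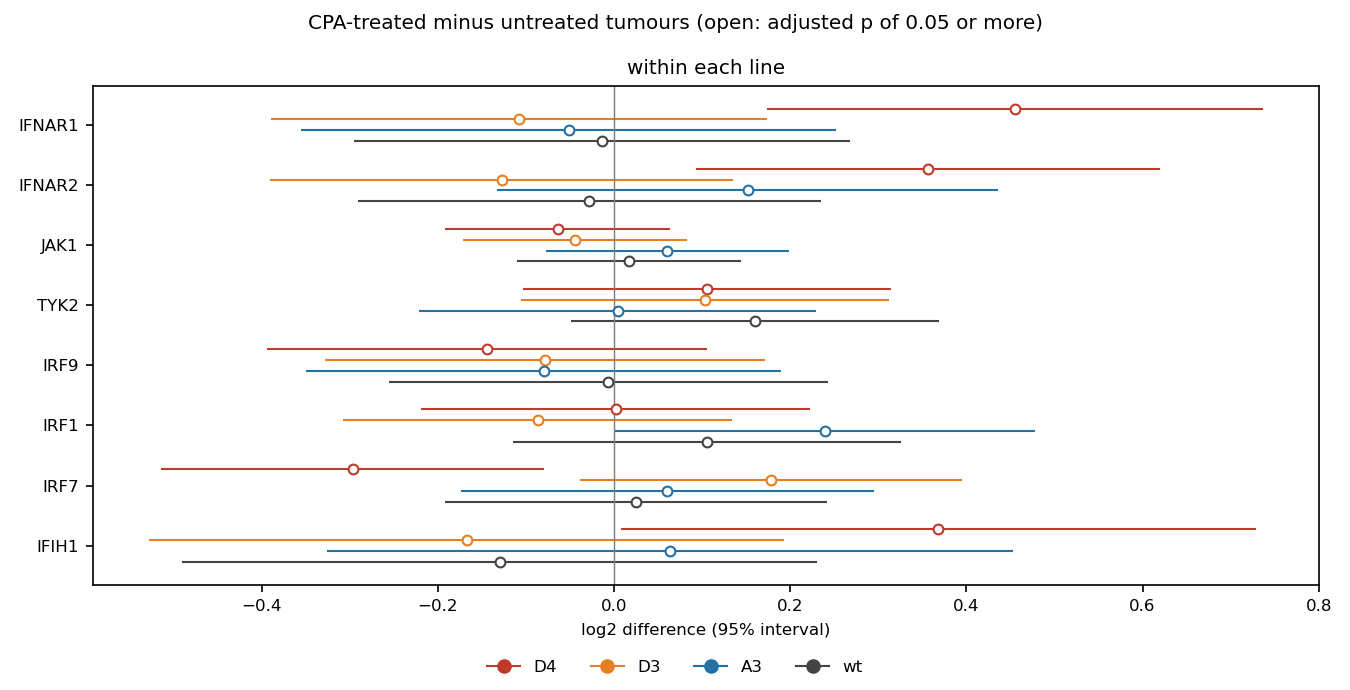
Log2 difference of CPA-treated from untreated tumours (horizontal axis) with its 95% interval for the 8 measured genes in D4, D3, A3 and wt. All points are open, since no difference was called. In D4, IFNAR1 at 0.46, IFNAR2 at 0.36 and IFIH1 at 0.37 lie right of 0 and IRF7 at -0.30 left of it, with intervals that leave out 0.

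Within groups the receptor chains varied together. Deviations of the 31 arrays from their group means were compared for all 28 pairs of the 8 genes, a choice made after seeing the data, with 100000 permutations of arrays within groups. IFNAR1 and IFNAR2 correlated at r = 0.80 (rho 0.85, permutation p = 1e-05, the smallest these permutations can give, adjusted p = 0.00028). IRF7 ran opposite to IFNAR1 (r = -0.75, rho -0.77, permutation adjusted p = 0.00252) and to IFNAR2 (r = -0.75, rho -0.69, permutation adjusted p = 0.0021). These 3 pairs were the ones of 28 with an adjusted p under 0.05 by the permutation test. IFIH1 and IRF9, the genes that separated clones and wt, deviated together at r = 0.24 (rho 0.24, permutation adjusted p = 0.464).

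These 3 relations held without the 2 arrays farthest on the measure compared, at r = 0.79, -0.69 and -0.65, and without the 4 far arrays, at 0.82, -0.72 and -0.68. Deviations of all genes had a first component with 27.7% of their variance, and it correlated at 0.85 with IFNAR1, 0.78 with IFNAR2 and -0.83 with IRF7. With IFNAR1, 0.861% of other genes correlated as highly as IFNAR2, and 0.745% as low as IRF7. The part of that component in the 3 relations was not tested.

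**Figure D5:**
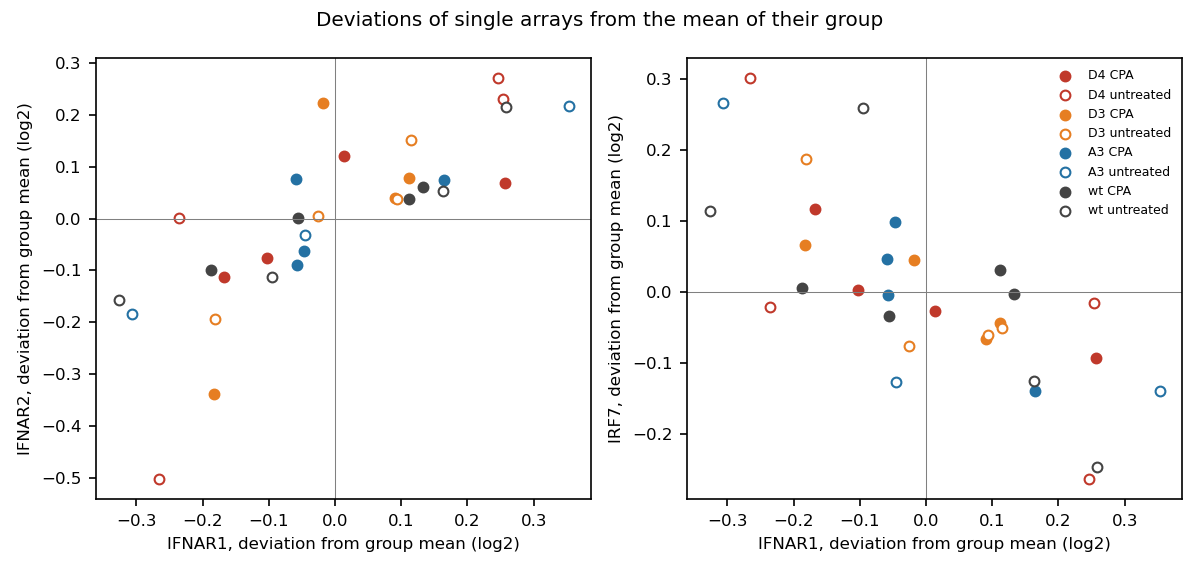
Deviation of single arrays from their group mean (log2) for IFNAR1 (horizontal axes) against IFNAR2 (left) and IRF7 (right), 31 arrays, filled for CPA-treated and open for untreated tumours. The left cloud rises (r = 0.80) and the right one falls (r = -0.75).

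The wt arrays themselves were uneven. Replicate 3 of CPA-treated wt was the highest of the 8 wt arrays for IFIH1 (8.12), IRF9 (9.23) and IRF1 (7.18). Replicate 1 of CPA-treated wt was the lowest for IFIH1 (7.13) and IRF9 (8.77), and untreated replicate 4 was the lowest untreated wt array for all 3 genes. The mean log2 level of 35 type I interferon-induced genes was 8.16, 8.64, 8.89 and 8.23 on the CPA-treated wt arrays and 8.69, 8.46, 8.79 and 8.31 on the untreated ones, so the same array was highest there.

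The 35 interferon-induced genes, which include effectors of the antiviral state, were lower in the clones. Against untreated wt, 33 of 35 were called lower in D4, 34 in D3 and 32 in A3, and none higher, with median log2 differences of -1.28, -1.35 and -1.29. Against CPA-treated wt, 32, 33 and 32 were called lower in the same order. The shares of all genes called lower were 10.9%, 8.4% and 8.36% in untreated and 7.59%, 10.1% and 9.6% in CPA-treated tumours. IFI44L, an interferon-induced gene of the antiviral response, differed from untreated wt by -2.81 in D4, -2.74 in D3 and -2.82 in A3. OAS2, which makes the 2-5A messenger that activates RNase L, differed by -1.86, -1.63 and -1.66 in the same order. IFIT2, which binds viral RNA, differed by -1.28, -1.38 and -1.45, and PARP9, a partner of the ubiquitin ligase DTX3L, by -1.23, -1.22 and -1.29. On single arrays the mean of the list ran from 7.13 to 7.54 in the clones and from 8.16 to 8.89 in wt. Between clones, 5 were called higher in CPA-treated D4 than in D3 and 3 than in A3, where 8.05% and 12.4% of all genes were called. In untreated tumours 1 was called lower in D4 than in A3, where 3.77% of all genes were called. This list was chosen with its behaviour in these tumours already known and is no independent evidence of its direction.

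Among 13 measured genes of interferon-gamma and IRF1, 6 were called lower in untreated D4, 8 in D3 and 7 in A3 against wt, and none higher. Over all genes, 10.9%, 8.4% and 8.36% were called lower in these comparisons. IDO1, which breaks down tryptophan, differed by -1.21 in D4, -1.31 in D3 and -1.18 in A3. The guanylate-binding protein GBP3 differed by -0.67, -0.51 and -0.61, and the adhesion molecule ICAM1 by -0.58, -0.54 and -0.70, in the same order. GBP2 differed by -0.55 in D3 and -1.01 in A3 and was not called in D4 (-0.48, adjusted p = 0.0759 by limma). Against CPA-treated wt, 3 were called lower in D4, 3 in D3 and 6 in A3, with median log2 differences of -0.21, -0.25 and -0.26, beside -0.40, -0.51 and -0.46 in untreated tumours. Of all genes, 7.59%, 10.1% and 9.6% were called lower against CPA-treated wt. ICAM1 in D3 (-0.29, adjusted p = 0.135 by limma) and GBP3 in D4 (-0.24, adjusted p = 0.264) were not called there, and GBP2 was called in A3 alone of the clones (-0.71, adjusted p = 0.00854). Between clones, 2 of the 13 were called higher in CPA-treated D4 than in A3, where 12.4% of all genes were called.

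Among 18 nucleic acid sensors and their adaptors, calls in untreated tumours went both ways: 1 higher and 4 lower in D4, 2 and 4 in D3 and 3 and 4 in A3. Calls in either direction made up 20.1%, 18.1% and 18.5% of all genes in the same order. RIGI, the sensor of RNA ends that works beside IFIH1, differed from wt by -1.41 in D4, -1.15 in D3 and -1.22 in A3. EIF2AK2, a kinase that double-stranded RNA switches on, differed by -0.66, -0.47 and -0.53. The DNA sensor CGAS was higher, by 0.57, 0.55 and 0.64. Named after their values were seen, TLR3, the endosomal receptor for double-stranded RNA, differed by -0.44, -0.48 and -0.49 and IFI16, a DNA-binding sensor, by -1.28, -0.97 and -0.54. The kinase IKBKE was higher in A3 (0.49), and the adaptor TRAF3 in D3 (0.34) and A3 (0.38), TRAF3 again named after its values were seen. In CPA-treated tumours RIGI was again called lower in D4, D3 and A3. EIF2AK2 was called lower there in D3 and A3 and not in D4 (-0.28, adjusted p = 0.163 by limma). After CPA, CGAS was called higher in D4 (0.58) and not in D3 (0.12, adjusted p = 0.53 by limma) or A3 (0.33, adjusted p = 0.0872). Against A3, 3 of the 18 were called lower in CPA-treated D4 and 1 in untreated D4. Against D3, 1 was called higher in CPA-treated D4. Of all genes, 12.4%, 3.77% and 8.05% were called in these comparisons.

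Of 4 other receptor chains, 1 was called lower in each untreated clone, where 20.1%, 18.1% and 18.5% of all genes were called in either direction in D4, D3 and A3: IFNGR2, the signalling chain for interferon-gamma, in D4 (-0.41) and D3 (-0.27), named after its values were seen, and IFNGR1, its ligand-binding partner, in A3 (-0.31). After CPA none was called lower against wt by limma, and IFNGR1 was called higher in D4 (0.35, adjusted p = 0.015). IFNGR1 was also called higher in CPA-treated D4 than in A3 (0.59, adjusted p = 0.000199 by limma) and D3 (0.44, adjusted p = 0.0139). In these 2 comparisons 12.4% and 8.05% of all genes were called. Of 7 other JAKs and STATs, STAT4, which carries interleukin-12 signals, differed by -1.49 in D4, -1.24 in D3 and -1.31 in A3, and JAK3, named after its values were seen, by -0.30 in D3. None of 4 other IRFs was called in untreated tumours by limma, and 1 was called lower in CPA-treated D4 against wt. Of the 7 JAKs and STATs, 3 were called lower in D4, 1 in D3 and 2 in A3 against CPA-treated wt. Of all genes, 7.59%, 10.1% and 9.6% were called lower in these comparisons. Between clones, 1 of the 7 was called lower in untreated D4 than in A3, 2 in CPA-treated D4 than in A3 and 1 than in D3. In the same order 3.77%, 12.4% and 8.05% of all genes were called. Of 20 interferon genes, 11 were measured, and IFNB1 was not among them. None of the 11 was called in untreated tumours, and their group means lay between 2.96 (IFNG) and 8.21 (IFNL3). The median percentile of their levels among all genes was 5.8, so a missing call says little. After CPA 1 was called higher in D3 against wt, where 16.4% of all genes were called. In CPA-treated D4, 1 was called higher than in A3 and 1 lower than in D3, where 12.4% and 8.05% of all genes were called.

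Of 13 negative regulators of the pathway, 2 were called higher and 3 lower in untreated D4, 4 and 3 in D3 and 2 and 1 in A3. Over all genes, 20.1%, 18.1% and 18.5% were called in either direction in these comparisons. SOCS2, a feedback inhibitor of cytokine receptors, was higher by 0.84 in D4, 0.97 in D3 and 0.30 in A3. SOCS3, an inhibitor of JAK kinases, was higher by 0.34 in D3 and 0.34 in A3. PIAS2, a SUMO ligase that binds STAT proteins, differed by -0.45, -0.38 and -0.55. Named after their values were seen, USP18, which removes ISG15 and holds back IFNAR2 signalling, differed by -0.44 in D4 and -0.50 in D3. PIAS1, a relative of PIAS2, differed by -0.35 in D4 and -0.34 in D3. CISH, a relative of SOCS2, was higher by 0.26 and 0.27, and PTPN1, a tyrosine phosphatase, by 0.19 in D3, likewise named after their values were seen. Against CPA-treated wt, SOCS3 was called in none of D4, D3 and A3 by limma. SOCS2 and PIAS2 kept their direction and call there. Against untreated A3, 1 of the 13 was called higher in D4 and 1 in D3, where 3.77% and 2.27% of all genes were called. Against CPA-treated A3, 2 were called higher and 1 lower in D4, and 1 and 1 in D3, where 12.4% and 4.55% of all genes were called. In CPA-treated D4 1 was called lower than in D3, where 8.05% of all genes were called.

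Markers of other cells were read beside the IFIH1 and IRF9 differences. The mean of 9 myeloid markers lay between 5.25 and 5.54 on the clone arrays and between 5.28 and 5.47 on the wt arrays, and that of 8 lymphoid and NK markers between 5.22 and 5.75 and between 5.24 and 5.51. For 7 endothelial markers the clone arrays lay between 6.26 and 6.64 and the wt arrays between 6.42 and 6.63, and for 9 fibroblast markers between 6.52 and 6.84 and between 6.55 and 6.87. The clone and wt arrays overlapped in these 4 list means, while single markers moved. Blood and stromal cells of a xenograft belong to the host, and the probe sets are annotated to human genes. How far they read host RNA was not tested, so the list means do not measure the content of such cells. KDR, an endothelial receptor for VEGF, was called lower in D4 (-1.74), D3 (-1.01) and A3 (-1.19) in untreated tumours. The collagen COL3A1 was called lower too, by -0.77, -0.61 and -1.01 in the same order. In CPA-treated tumours both were again called lower in D4, D3 and A3, KDR at -1.58, -0.86 and -0.97 and COL3A1 at -0.62, -0.54 and -0.93. Others of the endothelial and fibroblast lists were called higher after CPA: TIE1 in D3 (0.45) and A3 (0.41), CLDN5 in D3 (0.38) and A3 (0.35) and COL1A1 in D3 (0.51). LUM was called lower there in D3 (-0.64) and A3 (-0.65). Untreated, COL1A1 was called higher in D3 (0.43), ACTA2 in D4 (0.37) and D3 (0.58) and TEK in D4 (0.38). PECAM1 (-0.29) and LUM (-0.49) were called lower in untreated A3. CD68 was called higher in untreated D4 (0.30) and A3 (0.42), and LYZ, another of the myeloid markers, was called lower in untreated D4 (-0.60). In untreated tumours, 1 of 9 myeloid markers was called higher and 1 lower in D4, 0 and 0 in D3 and 1 and 0 in A3. None of the 8 lymphoid markers was called in either direction in the 3 clones by limma. Of 7 endothelial markers, 1 was higher and 1 lower in D4, 0 and 1 in D3 and 0 and 2 in A3, and of 9 fibroblast markers 1 and 1, 2 and 1, and 0 and 2. In the same comparisons 20.1%, 18.1% and 18.5% of all genes were called in either direction. The 5 carcinoma markers averaged 8.79 to 9.24 on the D4 arrays, 8.98 to 9.21 on the D3 arrays and 8.74 to 8.91 on the A3 arrays, against 9.03 to 9.32 on the wt arrays, so that every A3 array lay below every wt array. Of these 5, CDH1, the epithelial cadherin, was called lower in D4 (-0.90), D3 (-0.80) and A3 (-1.03) in untreated tumours, and KRT8 (-0.46) and EPCAM (-0.39) in A3 as well. In CPA-treated A3 all 3 were again called lower. The single markers given here were all named after their values were seen. The part of these cells in the differences was not tested.

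By the correlation of the 8 group means, the genes most like IFIH1 were ZNF160 (r = 0.998), LRP12 (0.996) and PARP9 (0.995), and those most like IRF9 were FAM162A (0.997), ZNF337 (0.996) and IFI27 (0.995). The 8 points fall into 6 clone means and 2 wt means, so these values describe that step. For IFNAR1 they were THUMPD2 (0.989), THOC2 (0.979) and METTL14 (0.977), and for IFNAR2 TIGD1 (0.974), RBM25 (0.964) and ZNF287 (0.960). For IRF1 they were CDON (0.979), GATAD1 (0.972) and ERO1B (0.959), and for IRF7 MOB3A (0.979), SLC2A9 (0.970) and TTC39A (0.969). JAK1 and TYK2 had the lowest best matches, AKR1C6P (0.953) and RHBDD2 (0.918). These likenesses are descriptions over 8 groups with no test.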

How the data were processed

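The table that the authors deposited holds log2 values from RMA, a tool named without a version in the submitters' processing notes. RMA gives all arrays a common distribution, so a change shared by most genes cannot be seen. No array file from before this step was used.

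Of 23989 probe sets, 17624 carried 1 symbol, 411 several and 5954 none. The set with the highest mean was kept per gene, which left 17314 genes, 17290 of them found by Entrez number in RefSeq (GRCh38.p14). Gene positions, current names and upstream windows came from that release.

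Differences were fitted with limma 3.58.1 in R 4.3.3 (lmFit, eBayes) over 31 arrays and 8 group means (23 residual degrees of freedom, median residual SD 0.148). The number of arrays limits the precision. P-values were Benjamini-Hochberg adjusted over all genes in each of 19 comparisons. Up to 4 genes of each list were named, by the smallest p among those called in A3 against untreated wt. The genes, lists and tests were chosen with earlier results of these data known.

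Samples with the same replicate number had positively correlated deviations in D3 against untreated wt (0.16 to 0.41) and untreated D4 against D3 (0.21 to 0.42). Samples with other numbers correlated up to 0.31 and 0.53 there, so the numbers were not shown to pair the samples. In untreated A3 against wt the same-number correlations ran from -0.66 to 0.04. The labels give no batch or scan date. Alternatives were only the groups compared, the replicate block, array weights, median centring, quantile normalization, a variance trend, all probe sets, no dim genes, leaving out each array and, added after seeing the data, no far arrays.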

Additional observations from a re-analysis of the deposited data

Results flagged for a closer look

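Of 56 groups of 4 arrays tested for the 8 genes, 5 held 1 array that stood apart from the other 3 by a gap above the 95% critical value of Dixon's test, and chance gives about 1 in 20. IRF1 read 7.18 on replicate 3 of CPA-treated wt, where the others read 6.71 to 6.73, and 6.63 on replicate 5 of untreated D3, where the others read 6.48 to 6.50. IRF7 read 7.53 on replicate 1 of untreated D3, against 7.27 to 7.29 on the others. TYK2 read 9.22 on replicate 1 of untreated wt, against 9.02 to 9.03. IFNAR1 read 8.91 on replicate 4 of CPA-treated A3, against 8.68 to 8.70.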

How the results depend on the processing

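Of 17 called differences, 12 kept their direction and call in all alternatives computed (all those of IFIH1 and IRF9), and none of the 17 turned round. The other 5 lost the call in at least 1 alternative: IRF1 in untreated A3 in 7 of 16, IFNAR2 in untreated D4 in 9 of 17, IRF7 in CPA-treated D4 in 9 of 17, and IRF1 in CPA-treated D4 in 3 and D3 in 1 of 17, all against wt. Of 19 counts of called genes, 14 stayed within 1.5 times. In CPA-treated D4 against A3 the count was 0, and became 2 with only the groups compared, 2 with array weights and 1 without the dimmest 30% of genes. Without the 4 far arrays it became 2, where 19.1% of all genes were called, and it was 0 to 1 with each array left out. In CPA-treated D4 against D3 it was 0, and became 3 with only the groups compared, 1 with the replicate block, 3 with array weights, 1 with quantile normalization, 1 without the dimmest 30% of genes, and 0 to 2 with each array left out. In CPA-treated D4 against wt it was 4, and became 2 with quantile normalization and 2 to 3 with each array left out. In untreated D4 against wt it was 3, 5 without the dimmest 30% of genes and 2 to 4 with each array left out. For CPA in D4 it was 0, and 0 to 2 with each array left out. In untreated D3 against wt and untreated D4 against D3, where same-number deviations correlated positively, the block moved no count. Without the 4 far arrays the count for untreated D4 against wt stayed at 3, with IRF1 called and IFNAR2 not, where 13.6% of all genes were called. The cause of these changes was not tested. Signal over background is not in the table, so it sets no limit that could be stated here.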
